A study of Mus musculus and Rattus norvegicus with 12 samples.

Results

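The genes described here are 30 genes of cholesterol synthesis and sterol regulation, measured by RNA-seq in mouse and rat cell lines of the early embryo. They were chosen by gene symbol from a list of pathway roles and make up 30 of 24411 genes in the mouse tables and 30 of 17315 in the rat tables. Of them, 20 are synthesis enzymes (8 from the first condensation steps to the isoprenoids and 12 from squalene to cholesterol), 5 sense sterols and drive transcription, 3 carry cholesterol inside the cell and 2 export it. All 30 were found in the tables of both species, and 29 passed the filter on low counts in mouse. The exception was Abcg1, with 2 counts over the pXEN lines, 11 over the XEN lines, 11 over the ES lines and 7 over the rat lines.

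The study profiled 12 separately derived blastocyst lines, each collected after 2 days in its own maintenance culture. All 8 mouse lines were of strain ICR. There were 3 pXEN lines (2, 4 and 6), 3 XEN lines (1, 2 and 5) and 2 embryonic stem lines (ES2, ES3). A XEN line propagates primitive endoderm, the layer that forms the yolk sac, whereas ES cells are pluripotent. The rat XENP lines were CX1 and MAX8 from strain WKY and MAX2 and MAX3 from strain F344. The labels give pXEN and rat XENP lines the same published culture without naming its medium. XEN lines grew on mouse embryo fibroblasts in 20% FBS, and ES lines in 15% FBS with LIF and 2i, the inhibitors used to hold cells pluripotent. Most mouse lines were at passages 14 to 21, and XEN1 was at 9 and 10. Rat lines MAX2, MAX3 and MAX8 were at passages 10 to 17, and CX1 at 38 and 40. Male lines per the labels were pXEN2, XEN2, XEN5, ES2, CX1 and MAX3, and the others were female. Cell type and culture differ together in each mouse comparison and cannot be told apart. Serum differs between XEN and ES, and that of the pXEN culture is not given in the labels.

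Cells make cholesterol from acetyl-CoA through mevalonate, isoprenoid diphosphates, squalene and lanosterol. The transcription factor SREBP2 and its relative SREBP1 switch these enzymes on when membrane sterol is low: SCAP escorts them to the Golgi for cleavage, and INSIG1 and INSIG2 hold SCAP back when sterol is high. Cholesterol taken up with lipoproteins leaves the lysosome through NPC2 and NPC1, STARD4 moves it between membranes, and ABCA1 and ABCG1 export it. Yolk sac endoderm is known for taking up and secreting lipoproteins for the embryo.

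Promoter sequence was available for 24 of the 30 genes, 17 of them enzymes, as RefSeq windows of the GRCm38.p6 mouse assembly. There was none for Fdps, Fdft1, Sqle, Stard4, Npc1 and Abcg1. The 250 bases before each start were searched on both strands for the sterol element core CACCCCAC, the CCAAT box, which binds NF-Y, a partner of SREBP, and the E-box, read CACGTG. The NF-Y box lay in 21 of the 24 genes and in 16 of the 17 enzymes, against 37.5% of all 27025 genes in the table. The sterol core lay in 2, Acat2 and Hmgcs1, against 2.98% of all genes, and the E-box in 6, against 6.86%. A match describes letters in this window and is not evidence of a bound site.

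The 4 windows below are a selection of promoters of genes called in the mouse comparisons, with each motif match in capitals. Mvk, Pmvk, Mvd, Lss, Cyp51, Lbr and Msmo1 were also called and had windows, which are not shown. Positions give the first base of a match counted back from the RefSeq start. A match on the other strand reads as ATTGG for the CCAAT box. The Hmgcs1 window, chr13:119690101-119690350 on the plus strand, holds the sterol core at position -136 from the start and CCAAT at -237, -176 and -45. The Idi1 window, chr13:8885356-8885605 on the plus strand, holds CCAAT at -45 and -14. The window shown for Dhcr7, chr7:143829964-143830213 on the plus strand, is that of the most downstream of its 3 RefSeq starts, inside the gene, shown because it alone of the 3 holds the CCAAT box. It has CCAAT at -85 and -49. Insig1, chr5:28071162-28071411 on the plus strand, has CCAAT at -216 and the E-box at -101.
Hmgcs1: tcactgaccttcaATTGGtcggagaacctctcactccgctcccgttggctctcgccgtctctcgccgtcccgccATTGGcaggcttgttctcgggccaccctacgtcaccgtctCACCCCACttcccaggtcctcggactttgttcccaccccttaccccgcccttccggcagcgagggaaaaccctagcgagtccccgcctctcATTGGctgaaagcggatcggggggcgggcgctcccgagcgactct
Idi1: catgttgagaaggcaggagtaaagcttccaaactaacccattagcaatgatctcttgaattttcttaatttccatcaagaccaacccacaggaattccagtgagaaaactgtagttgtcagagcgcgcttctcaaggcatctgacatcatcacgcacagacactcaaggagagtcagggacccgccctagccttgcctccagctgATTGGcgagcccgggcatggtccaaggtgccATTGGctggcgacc
Dhcr7: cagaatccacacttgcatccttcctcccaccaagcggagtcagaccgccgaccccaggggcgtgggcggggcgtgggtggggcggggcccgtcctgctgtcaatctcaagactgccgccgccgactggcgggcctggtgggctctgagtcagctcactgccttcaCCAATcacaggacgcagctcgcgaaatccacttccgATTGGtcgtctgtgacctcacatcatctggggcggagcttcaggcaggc
Insig1: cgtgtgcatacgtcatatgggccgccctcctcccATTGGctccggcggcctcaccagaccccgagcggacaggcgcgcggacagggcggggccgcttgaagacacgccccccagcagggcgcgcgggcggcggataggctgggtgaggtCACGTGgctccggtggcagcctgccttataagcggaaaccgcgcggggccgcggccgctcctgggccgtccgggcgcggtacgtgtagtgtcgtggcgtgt

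Each mouse line had 2661691 to 3483069 counts in genes, and each rat line 1047535 to 1242937. Levels below are CPM, counts scaled to library size, of the TMM-scaled library in mouse and of all gene counts in rat, and the 2 scales are not comparable. The labelled cell types were checked against markers. All 8 primitive endoderm markers were detected in each pXEN, XEN and rat XENP line (summed 1269 to 2463 CPM in mouse, 2744 to 3472 in rat) and stood at 6.17 to 6.63 CPM in ES. The 8 pluripotency markers summed to 4063 to 4098 CPM in ES, 83.5 to 144 CPM in pXEN and 33.1 to 50.7 CPM in XEN, with Pou5f1 at 235 counts over the pXEN lines and 2 over the XEN lines and Sox2 at 0 in both. Of them 2 were called higher in pXEN than in XEN and 0 lower, and by DESeq2 3 and 1. Their median log2 fold change was 0.0, with 3 above 0 and 2 below. Tfcp2l1 had the most counts of the 8 in both groups, 720 over the pXEN lines and 390 over the XEN lines. Zfp42 stood at 162 and 1 counts in the same order, Nanog at 1 in both, and Esrrb and Tdgf1 at 0 in both. Klf2 stood at 14 counts over the pXEN lines and 47 over the XEN lines. In rat, 6 of the markers were in the table and summed to 175 CPM in CX1 and 21.0 to 30.5 CPM in the MAX lines. The 18 fibroblast markers summed to 447 to 549 CPM in XEN, with 16 or 17 detected in a line, against 10.2 to 16.2 CPM in pXEN and 13.6 to 14.4 in ES. Col1a2, Col3a1 and Prrx1 were at 0 counts in pXEN and ES. In the test of pXEN against XEN, 14 of the 15 fibroblast markers tested were lower in pXEN. Fibroblast markers were thus high in XEN, and the sum of the pluripotency markers higher in pXEN than in XEN, beside every comparison of these groups below. Their part in the results was not tested.

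The first comparison set pXEN against XEN, both endoderm lines. Of the 20 synthesis enzymes, 4 were higher in pXEN (Fdps, Fdft1, Sqle and Dhcr7; edgeR quasi-likelihood test, adjusted p at most 0.05), 0 were lower and 16 did not pass. Without XEN1 or without XEN5, 2 were called, and without XEN2 7. The log2 fold change was above 0 for 18 of the 20, with a median of 0.95, and below 0 for Ggps1 (-0.22) and Ebp (-0.26). Of the other 9 genes tested edgeR called 0, with 1, Abca1, at an unadjusted p under 0.05. Among all 10895 genes tested, 4.55% were called (0.918% higher and 3.63% lower), 49.2% had a log2 fold change above 0 and the median was 0.00. The 3 pXEN lines all lay above the 3 XEN lines for 14 of the 20 enzymes, against 8.32% of all genes. In these bulk libraries a different mix of cells and a different amount of RNA per cell cannot be told apart.

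The enzymes up to farnesyl diphosphate feed both sterols and protein prenyl groups. Fdps, which makes farnesyl diphosphate (chr3:89093588-89101959, minus strand, GRCm38), stood at 45.4, 67.8 and 41.9 CPM in pXEN2, pXEN4 and pXEN6, at 21.8, 16.4 and 16.4 CPM in XEN1, XEN2 and XEN5, and at 68.3 and 53.8 CPM in ES2 and ES3. The pXEN and ES lines overlapped, and every XEN line lay below all of them. Fdps was 2.85-fold higher in pXEN than in XEN (log2 fold change 1.51 ± 0.26 SE, edgeR adjusted p = 0.00745) and 3.36-fold lower in XEN than in ES (adjusted p = 0.000852). Both calls held when any 1 line was left out. Between pXEN and ES the log2 fold change was -0.24 ± 0.28 (adjusted p = 0.536).

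Idi1, the isomerase that supplies the activated isoprene unit (chr13:8885501-8892451, plus strand), was ordered ES, pXEN, XEN. It read 15.1, 20.8 and 14.9 CPM in pXEN, 3.90, 10.3 and 6.34 CPM in XEN, and 52.6 and 32.3 CPM in ES, and no 2 groups overlapped. It was 6.08-fold lower in XEN than in ES (log2 -2.60 ± 0.39, edgeR adjusted p = 0.00055), the largest change of any of the 29 genes tested, and this call held without any 1 line. It was 2.5-fold lower in pXEN than in ES (adjusted p = 0.0174), which was not called without pXEN2 (0.0577), pXEN6 (0.0524) or ES2 (0.195). The difference of pXEN from XEN, log2 1.28 ± 0.37, had an adjusted p of 0.0833 (0.0378 without XEN2 and 0.0461 with no filter on low counts).

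Hmgcs1, the synthase whose promoter holds the sterol core shown above, read 16.8, 26.2 and 11.8 CPM in pXEN, 8.18, 11.7 and 4.76 CPM in XEN, and 19.7 and 18.7 CPM in ES. The XEN lines were the lowest, with XEN2 just under pXEN6. The fall from ES to XEN was 2.34-fold (edgeR adjusted p = 0.0437) and was called without XEN2 but not without pXEN2, XEN1, XEN5, ES2 or ES3 (adjusted p up to 0.154), nor with DESeq2 (0.0644) or sex as a covariate (0.0577). Mvd, which forms isopentenyl diphosphate, read 12.2, 15.9 and 12.9 CPM in pXEN, 5.85, 7.78 and 9.25 CPM in XEN, and 19.7 and 15.6 CPM in ES. The XEN lines were the low group, and pXEN and ES overlapped. Mvd was 2.29-fold lower in XEN than in ES (adjusted p = 0.0163), a call lost without ES2 (0.123).

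Both mevalonate kinases had another order, with the lowest mean in ES. Mvk read 14.5, 25.6 and 19.5 CPM in pXEN, 13.6, 8.90 and 10.8 CPM in XEN, and 5.76 and 9.74 CPM in ES. Pmvk, the next kinase, read 58.9, 30.5 and 41.3 CPM in pXEN, 26.1, 28.9 and 25.9 CPM in XEN, and 21.0 and 22.2 CPM in ES. Every pXEN line lay above every XEN and ES line for both genes. Mvk was 2.55-fold higher in pXEN than in ES (edgeR adjusted p = 0.0207; 0.162 without ES2 and 0.0587 without pXEN4). Pmvk was 2.01-fold higher (adjusted p = 0.025; 0.127 without ES2, 0.0955 without ES3 and 0.0946 without pXEN2). Acat2, the cytosolic thiolase, ranged from 11.2 to 17.1 CPM in pXEN and 4.68 to 9.45 CPM in XEN and was not called. Ggps1, which branches off to the geranylgeranyl group, ranged from 6.26 to 12.2 CPM over the 8 lines with all groups overlapping.

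**Figure D1:**
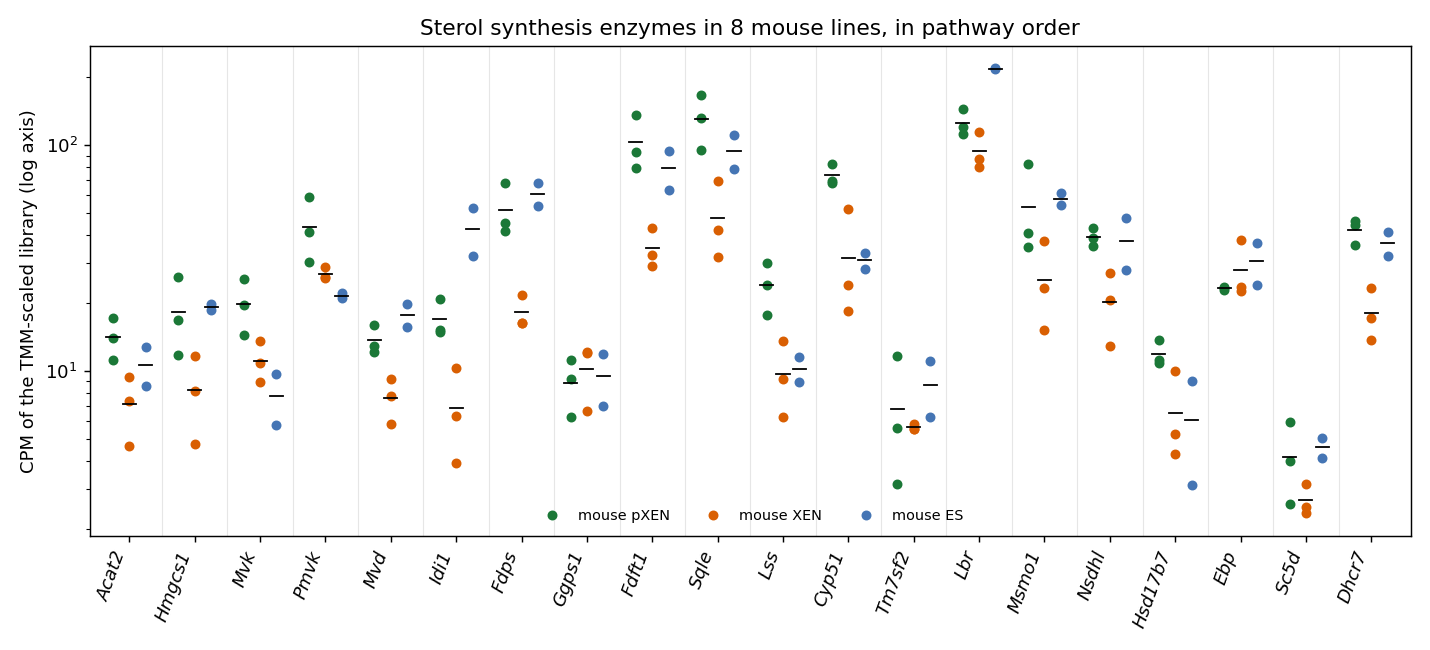
Levels of the 20 synthesis enzymes in pathway order in the 8 mouse lines, in CPM of the TMM-scaled library on a log axis. Each point is 1 line, black bars are group means; pXEN points lie above all XEN points for 14 of the 20 enzymes, and for Idi1 the ES lines (52.6 and 32.3) lie above all others.

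Past farnesyl diphosphate the pathway is committed to sterols. Fdft1, squalene synthase (chr14:63145150-63179578, minus strand), read 93.1, 136 and 79.5 CPM in pXEN, 29.2, 43.1 and 32.8 CPM in XEN, and 94.6 and 63.5 CPM in ES. The lowest pXEN line stood well above the highest XEN line, and the ES lines fell within or below the pXEN range. Fdft1 was 2.93-fold higher in pXEN than in XEN (log2 1.55 ± 0.27, edgeR adjusted p = 0.00758), and this call held without any 1 line. In XEN it was 2.25-fold lower than in ES (adjusted p = 0.00977; 0.121 without ES2).

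Sqle, squalene epoxidase and a rate-limiting step (chr15:59315077-59331192, plus strand), read 132, 167 and 95.6 CPM in pXEN, 42.1, 69.5 and 32.0 CPM in XEN, and 111 and 78.3 CPM in ES. All XEN lines lay below all others. Sqle was 2.74-fold higher in pXEN than in XEN (log2 1.46 ± 0.32, edgeR adjusted p = 0.0231). That call was lost without pXEN2 (0.0717), pXEN4 (0.0598), XEN1 (0.101) or XEN5 (0.0846). It was 1.98-fold lower in XEN than in ES (adjusted p = 0.0427; lost without pXEN2, XEN1, XEN5, ES2 or ES3, up to 0.276).

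Dhcr7, the reductase of the last step to cholesterol (chr7:143823145-143848410, plus strand), read 36.2, 44.4 and 46.2 CPM in pXEN, 17.1, 23.4 and 13.7 CPM in XEN, and 41.1 and 32.3 CPM in ES. XEN was again the low group with no overlap. Dhcr7 was 2.34-fold higher in pXEN than in XEN (log2 1.22 ± 0.26, edgeR adjusted p = 0.0215), a call lost without pXEN6 (0.071), XEN1 (0.0686) or XEN5 (0.0879). It was 2.03-fold lower in XEN than in ES (adjusted p = 0.0169; 0.134 without ES2 and 0.0591 without XEN5).

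Lss, which closes squalene epoxide into lanosterol, and Cyp51, which demethylates lanosterol, had their highest levels in pXEN. Lss read 17.8, 30.2 and 24.1 CPM in pXEN, 6.23, 13.6 and 9.25 CPM in XEN, and 11.5 and 8.96 CPM in ES. Cyp51 read 69.8, 82.9 and 68.0 CPM in pXEN, 24.2, 52.0 and 18.5 CPM in XEN, and 33.3 and 28.5 CPM in ES. For both genes the 3 pXEN lines lay above the 5 other lines, among which XEN and ES overlapped. Over all genes, 30.2% had the pXEN lines above both ES lines. Against ES, Lss was 2.35-fold and Cyp51 2.38-fold higher (edgeR adjusted p = 0.032 and 0.0282). Both calls were lost without ES2, without ES3 or without pXEN4, Lss also without pXEN6 and Cyp51 without pXEN2 (adjusted p up to 0.174 and 0.154). Against XEN neither was called, with Lss at log2 1.29 ± 0.34 and Cyp51 at 1.22 ± 0.34 (adjusted p = 0.0602 and 0.0743). Without XEN2, the XEN line with the highest level of both, they were 0.0386 and 0.00453. With no filter on low counts both were called (0.0362 and 0.0361), and DESeq2 called Cyp51 (0.0285).

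Lbr is a lamin-binding protein of the nuclear envelope that also acts as a sterol reductase (chr1:181815335-181843046, minus strand). It read 113, 120 and 144 CPM in pXEN, 80.3, 115 and 86.9 CPM in XEN, and 220 and 217 CPM in ES. ES stood above both endoderm groups, which overlapped (32.6% of all genes had pXEN below ES without overlap). It was 2.32-fold lower in XEN than in ES (log2 -1.22 ± 0.23, edgeR adjusted p = 0.0019), held without any 1 line, and 1.74-fold lower in pXEN (log2 -0.80 ± 0.23, adjusted p = 0.0176), lost without pXEN2 (0.0636), ES2 (0.0876) or ES3 (0.0792). Tm7sf2, which reduces the same sterol bond, ranged from 3.16 to 11.7 CPM over the 8 lines and was not called in any comparison.

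Msmo1, the methylsterol oxidase, read 35.5, 82.9 and 41.0 CPM in pXEN, 15.2, 37.5 and 23.3 CPM in XEN, and 61.3 and 54.6 CPM in ES. It was 2.27-fold lower in XEN than in ES (edgeR adjusted p = 0.0454; called without XEN2, lost without pXEN6, XEN1, XEN5, ES2 or ES3, up to 0.186, with no filter on low counts, 0.0526, and with sex as a covariate, 0.064). Nsdhl, which acts after it, read 35.9 to 43.0 CPM (pXEN), 12.9 to 27.2 CPM (XEN) and 28.0 to 47.5 CPM (ES). Every XEN line lay below the lines of the other groups, and the edgeR adjusted p for XEN against ES was 0.0577. Hsd17b7, the ketoreductase, read 10.9 to 13.7 CPM (pXEN), 4.29 to 10.0 CPM (XEN) and 3.12 to 9.05 CPM (ES). Ebp, the sterol isomerase, read 23.0 to 23.6, 22.5 to 38.2 and 24.2 to 37.0 CPM in the same order. Sc5d, the desaturase, was at 2.34 to 5.92 CPM in all 8 lines. None of these 4 was called.

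Over the enzymes, an XEN line was the lowest of the 8 lines for 15 of 20, and the highest was a pXEN line for 13 and an ES line for 5. Of the 8 lines 3 were XEN, 3 pXEN and 2 ES, and the matching shares over all genes were not computed. The summed enzyme level lay between 746 and 963 CPM for pXEN lines, between 367 and 527 CPM for XEN lines and between 738 and 873 CPM for ES lines. XEN1 had the lowest level of the 8 lines for 9 enzymes and XEN5 for 5, and pXEN4 the highest for 9. Of the XEN lines, XEN2 came nearest to the other groups, and the median log2 fold change of the enzymes for pXEN against XEN was 1.25 without it.

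The second and the third comparison set the endoderm lines against ES and share the ES libraries. The first shares its pXEN and XEN libraries with them. In pXEN against ES, 7 of 29 genes rose and 2 fell, where 18.2% and 17.8% of all genes were called. Of the 20 enzymes, 4 were higher (Mvk, Pmvk, Lss and Cyp51) and 2 lower (Idi1 and Lbr), with a median log2 fold change of -0.01 against -0.03 for all genes. In XEN against ES, 3 of 29 rose and 9 fell, where 20.7% and 17.8% of all genes were called. All 9 lower genes were enzymes, 15 of 20 enzymes had a log2 fold change below 0, and their median was -0.83 against 0.00 for all genes. For 12 enzymes all XEN lines lay below both ES lines, against 31.7% of all genes.

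ES had only 2 lines, and ES2 weighed on these counts. Without ES2, pXEN against ES had 1 gene higher (Stard4) and 0 lower, and XEN against ES 0 higher and 4 lower. These 4 were Idi1, Fdps and Lbr from the 9 and Nsdhl, not called with all lines (0.0577, and 0.0485 without ES2). The all-gene shares fell as well, to 10.2% and 12.0% for pXEN and 11.2% and 10.5% for XEN. Without ES3 the members called were 3 and 1, and 2 and 6. Without pXEN4, 3 were higher in pXEN than in ES. Without XEN5, 5 were lower in XEN than in ES.

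**Figure D2:**
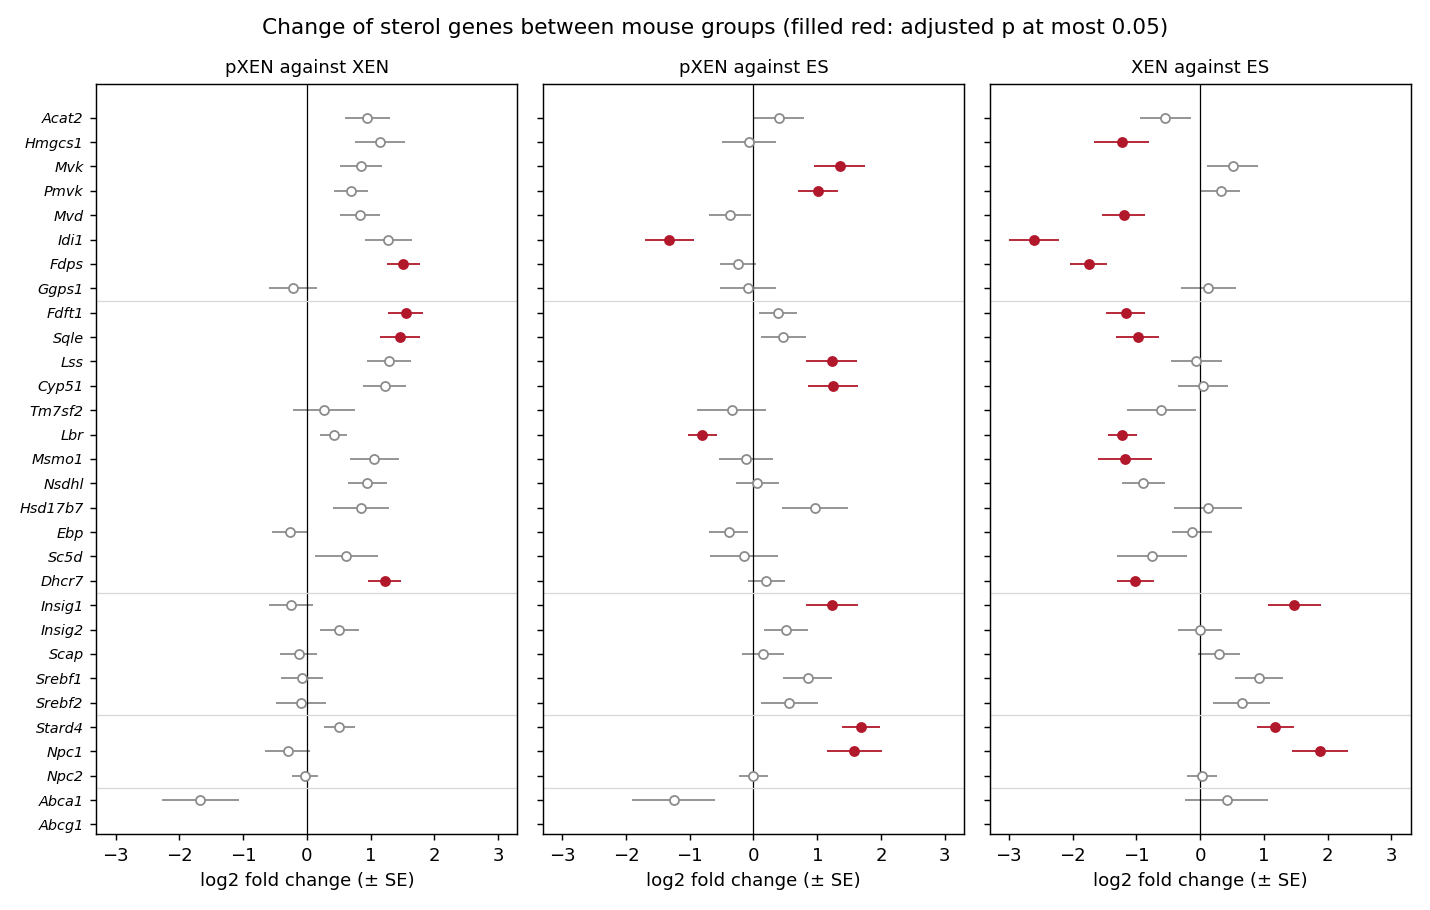
Log2 fold change and its standard error for the 29 genes tested in each of 3 mouse comparisons, with genes ordered by role. Filled red points were called; the 4 called in pXEN against XEN and the 9 called lower in XEN against ES are all enzymes, while Insig1, Stard4 and Npc1 were higher than in ES in both endoderm groups.

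The 5 sensor and SREBP genes overlapped between pXEN and XEN. Of them 0 were called by edgeR or DESeq2, 0 had an unadjusted p under 0.05, and their median log2 fold change was -0.09. Srebf2, which encodes the main driver of these enzymes, read 39.2, 82.0 and 53.7 CPM in pXEN, 69.4, 87.6 and 29.9 CPM in XEN, and 34.1 and 45.2 CPM in ES. The groups overlapped, and pXEN differed from XEN by log2 -0.09 ± 0.39 (edgeR adjusted p = 0.97). Srebf1, whose protein drives fatty acid synthesis more than sterols, read 72.4, 95.4 and 87.2 CPM in pXEN, 143, 53.7 and 71.3 CPM in XEN, and 39.9 and 54.2 CPM in ES. It was not called in any comparison (adjusted p = 0.106 and 0.0805 against ES). It was called higher in XEN than in ES without XEN2 (0.0202), with no filter on low counts (0.0459) and with sex as a covariate (0.0214). It was called higher in pXEN than in ES without XEN1 (0.0261) and with these 2 groups alone (0.0252). These are mRNA levels, and cleavage of the SREBP proteins was not measured. Scap ranged from 13.6 to 27.7 CPM and Insig2 from 12.8 to 30.1 CPM over the 8 lines, and neither was called.

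Insig1, itself a target of SREBP and the brake on it (chr5:28071363-28078662, plus strand), was higher in both endoderm groups than in ES. It read 141 (pXEN2), 326 (pXEN4) and 152 (pXEN6), then 156, 323 and 259 CPM in XEN, and 95.8 and 80.7 CPM in ES. Every endoderm line lay above both ES lines, as 31.6% of all genes did for XEN. The rise over ES was 2.34-fold in pXEN (edgeR adjusted p = 0.0403) and 2.79-fold in XEN (0.0184). The first call was lost without pXEN4 (0.102), XEN5 (0.0577), ES2 (0.133) or ES3 (0.199), with upper-quartile scaling (0.0522) and with sex as a covariate (0.0614), and the other without ES2 (0.0851) or ES3 (0.126). Between pXEN and XEN it differed by log2 -0.25 ± 0.35 (unadjusted p = 0.49), while the enzymes had a median of 0.95. Per kilobase of exon it had the highest level of the 30 genes in pXEN (66.8 ± 33.6 CPM per kb, SD, n = 3) and XEN (79.5 ± 27.3), and in ES (28.5 ± 3.46, n = 2) it came after Lbr (45.9 ± 0.313).

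Of the intracellular carriers, Stard4 and Npc1 were higher in both endoderm groups than in ES. Stard4 read 42.8, 63.2 and 56.8 CPM in pXEN, 30.8, 39.5 and 43.9 CPM in XEN, and 14.8 and 18.7 CPM in ES. It was 3.23-fold higher in pXEN (log2 1.69 ± 0.30, edgeR adjusted p = 0.00121), held without any 1 line, and 2.27-fold higher in XEN (adjusted p = 0.00868; 0.0827 without ES2). Npc1, the lysosomal membrane exporter, read 43.4, 55.2 and 60.8 CPM in pXEN, 107, 53.1 and 37.5 CPM in XEN, and 14.4 and 21.0 CPM in ES. XEN1 was the highest line, and both ES lines lay below all endoderm lines. The rise over ES was 2.99-fold in pXEN (adjusted p = 0.0153) and 3.68-fold in XEN (0.00671), each lost without ES2 (0.126 and 0.0718). Npc2, which hands cholesterol to NPC1 in the lysosome, stayed within 113 to 150 CPM in all 8 mouse lines. Its log2 difference from ES was 0.00 ± 0.23 in pXEN and 0.03 ± 0.23 in XEN, and none of the 3 genes was called between pXEN and XEN.

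The exporter Abca1 (chr4:53030787-53159895, minus strand) varied widely between lines of 1 group. It read 15.8, 54.1 and 59.4 CPM in pXEN2, pXEN4 and pXEN6, 249, 90.9 and 73.4 CPM in XEN1, XEN2 and XEN5, and 82.2 and 124 CPM in ES2 and ES3. All pXEN lines lay below all others, where 11.5% of all genes had the pXEN lines below the XEN lines. The fold was 3.18 below XEN (log2 -1.67 ± 0.60, edgeR adjusted p = 0.214) and 2.38 below ES (log2 -1.25 ± 0.65, adjusted p = 0.17), and neither was called. Without XEN1 the log2 difference from XEN was -0.94 (adjusted p = 0.485). DESeq2 called the difference from XEN (adjusted p = 0.0237). Per kilobase of exon, Abca1 was at 4.16 ± 2.30 CPM per kb in pXEN, 13.3 ± 9.35 in XEN and 9.93 ± 2.82 in ES.

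Within each mouse group the female lines had more Abca1 than the male lines: 54.1 and 59.4 against 15.8 CPM in pXEN, 249 against 90.9 and 73.4 in XEN, 124 against 82.2 in ES. With sex as a covariate, the female lines were 2.62-fold above the male lines (log2 difference of male minus female -1.39 ± 0.24). The sex term was not called (edgeR adjusted p = 0.398; 0.00918% of all genes had it called) and was looked at because these values had been seen. Npc1, Srebf1 and Mvk had the same order of sexes in each mouse group, with female lines 1.71-fold, 1.61-fold and 1.52-fold above male lines. Acat2 had the opposite order in each mouse group (female over male 0.659-fold). The edgeR sex term of these genes, in this order, had unadjusted p = 0.00614, 0.00859, 0.0475 and 0.0642. The adjusted p was 0.909, 0.914, 0.914 and 0.914, and none was called. These genes were picked by their order, and the share of all genes so ordered by sex in each mouse group was not computed. In the edgeR fit with sex as a covariate the Abca1 difference of pXEN from XEN was -2.12 on the log2 scale (adjusted p = 0.00316). That from ES was -1.69 (0.00183), and both were called. Without the covariate neither was called (edgeR adjusted p = 0.214 and 0.17). The order of Abca1 by sex had been seen beforehand and the sexes were not balanced between groups, so these 2 calls are not separate support for a difference. Female XEN1 was also the line at the earliest passage. In rat the order was not by sex, with males CX1 and MAX3 lowest and highest.

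**Figure D3:**
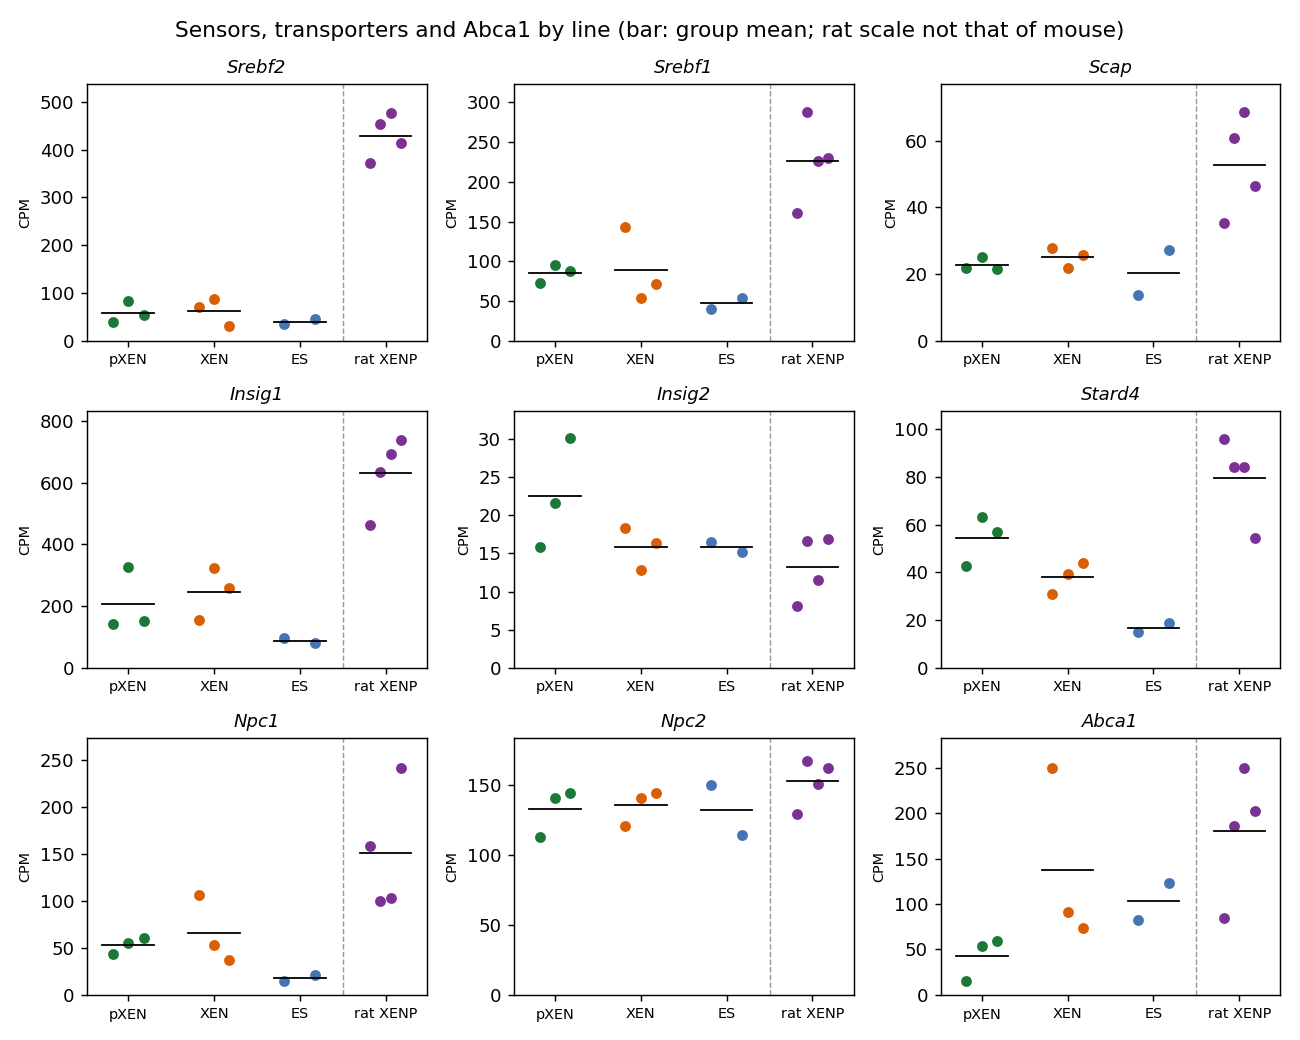
Levels of 9 sensors, carriers and Abca1 by line, in CPM with a separate axis for each gene; points are lines, bars group means, and the dashed line parts rat from mouse because the scales differ. Insig1, Stard4 and Npc1 are lower in both ES lines than in any endoderm line, Npc2 is level, and the 3 pXEN lines have the lowest Abca1 of the mouse lines.

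Synthesis enzymes were then set beside all 30 genes and beside the exporter Abca1 in each line. The share of the 30 genes' counts is not one of synthesis against export, since the rest also holds sensors and carriers. Over the XEN lines Insig1 had 2542 counts, Npc2 1364 and Abca1 1245. Enzymes took 60.3%, 52.7% and 52.8% of the counts of the 30 genes in pXEN2, pXEN4 and pXEN6, 28.5%, 39.0% and 34.4% in XEN1, XEN2 and XEN5, and 65.4% and 59.5% in ES2 and ES3. The XEN lines were the low group, and pXEN and ES overlapped. Per kilobase, the summed enzyme level exceeded Abca1 131-fold, 44.2-fold and 33.0-fold in the pXEN lines, 4.21-fold, 15.2-fold and 14.1-fold in the XEN lines, and 26.9-fold and 15.3-fold in the ES lines. The pXEN lines had the highest ratios. ES3 and XEN2 had nearly the same, and pXEN2 and XEN1, the lines with the least and the most Abca1, stood at the ends. These ratios carry no test.

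**Figure D4:**
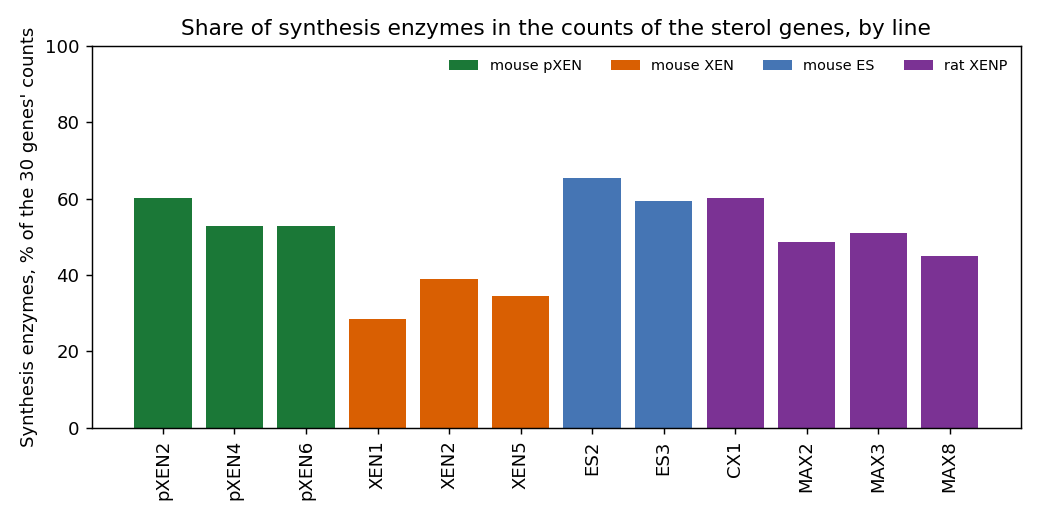
Share of the 20 synthesis enzymes in the counts of the 30 sterol genes, in percent, for each of 12 lines; bars start at 0, counts are not scaled for gene length, and rat and mouse tables differ in their genes' annotation. The 3 XEN lines (28.5 to 39.0%) lie below the other mouse lines, the lowest of which is pXEN4 at 52.7%. The rat lines lie between 45.0% (MAX8) and 60.0% (CX1) and are not ranked against mouse lines.

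In the 4 rat XENP lines the same genes were described without a test, since they form 1 group. Up to 70.1% of rat reads mapped to several places and are not in these counts. Fdps read 636, 576, 529 and 487 CPM in CX1, MAX2, MAX3 and MAX8, Idi1 200.3, 158, 180 and 140.2 CPM, and Sqle 90.1, 62.9, 101 and 58.9 CPM. Lines kept within 1.5-fold for Fdps and Idi1. Hmgcs1 varied most among these, at 167, 103, 128 and 46.4 CPM. MAX8 was lowest for 9 of the 20 enzymes and highest for 0, and CX1 was highest for 10 and lowest for 3. The matching shares over all rat genes were not computed, and these CPM were not TMM-scaled. Fdft1 read 64.4, 40.7, 47.7 and 38.4 CPM, and Dhcr7 128, 84.1, 144 and 84.8 CPM.

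The rat sensors and carriers ran differently across the lines. Insig1 read 464 CPM in CX1, then 636, 693 and 739 CPM in MAX2, MAX3 and MAX8, so CX1, with the most enzymes at their highest, had the lowest Insig1. Srebf2 read 372, 455, 476 and 414 CPM and Srebf1 161, 287, 226 and 230 CPM, also lowest in CX1. Npc1 read 158, 99.8, 103 and 242 CPM, highest in MAX8. Stard4 read 95.7, 84.1, 84.0 and 54.5 CPM, lowest in MAX8. Abca1 read 84.5, 186, 250 and 203 CPM, lowest in CX1. The enzyme share of the 30 genes' counts was 60.0% in CX1, 48.6% in MAX2, 50.9% in MAX3 and 45.0% in MAX8. CX1 also stood apart in its passage (38 and 40) and in its summed pluripotency markers (175 CPM). It had 3 of these 6 markers detected, as had MAX2. Over the 4 rat lines Pou5f1 had 226 counts, Tfcp2l1 72 and Klf2 3, and Nanog, Sox2 and Esrrb 0. The part of passage or of the marker sum was not tested.

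Lists of neighbouring pathways were read the same way. Of 13 fatty acid genes, targets of SREBP1, 2 rose and 0 fell in pXEN against XEN, where 0.918% and 3.63% of all genes were called higher and lower. Elovl6, which elongates palmitate, was at 116 ± 65.1 against 23.1 ± 1.44 CPM (SD, n = 3 each, 5.02-fold, edgeR adjusted p = 0.00635). Acly, which supplies cytosolic acetyl-CoA, was at 438 ± 122 against 218 ± 9.09 CPM (2.01-fold, adjusted p = 0.0206). Against ES, 4 of the 13 were higher and 3 lower in each endoderm group. All genes were called higher or lower at 18.2% and 17.8% in pXEN against ES and at 20.7% and 17.8% in XEN against ES, and the counts against ES in the lists here are to be read beside these shares. Lpin1 was 2.87-fold higher in pXEN and 2.82-fold in XEN, Acacb fell to 0.694 CPM in pXEN from 18.7 in ES, and Elovl6 was 7.58-fold lower in XEN (adjusted p = 0.000399). Of 9 genes that process SREBP or degrade sterol enzymes, 0 were called between pXEN and XEN by edgeR or DESeq2 (1 at an unadjusted p under 0.05), and against ES 5 rose and 1 fell in pXEN, 4 rose and 1 fell in XEN. Sec24d, a coat protein of vesicles leaving the endoplasmic reticulum, was 6.96-fold and 9.97-fold above ES (edgeR adjusted p = 0.00157 and 0.000618).

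Lipoprotein receptors and their adaptors had 7 of 8 genes tested. Against ES, 4 rose and 2 fell in pXEN, and 4 rose and 1 fell in XEN. They included Dab2, the endocytic adaptor that is also an endoderm marker (490 CPM in pXEN and 592 in XEN against 2.18 in ES, edgeR adjusted p = 9.1e-06 and 8.72e-06). Between pXEN and XEN only Lrp1, a large scavenger receptor, was called, 6.85-fold lower in pXEN (2.09 ± 1.30 against 14.7 ± 5.55 CPM, adjusted p = 0.00886), in the direction of the fibroblast markers. Of the 6 LXR genes tested of 8, the oxysterol receptors and their targets, 0 were called between pXEN and XEN by edgeR or DESeq2 (0 at an unadjusted p under 0.05). Against ES, 1 rose and 2 fell in pXEN, and 1 rose and 1 fell in XEN. Lpcat3, a phospholipid remodelling enzyme, was 5.96-fold and 6.02-fold above ES in pXEN and XEN. Rxra, the partner receptor, was lower in both (11.6-fold and 6.2-fold, edgeR adjusted p = 0.000846 and 0.00359). It stood at 1.965 ± 0.808 CPM in pXEN and 3.779 ± 0.449 CPM in XEN (SD, n = 3 each). In ES it was at 23.44 ± 19.77 CPM (n = 2), so the ES lines differed widely.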

How the data were processed

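RNA-seq libraries of 8 mouse and 4 rat lines were used. Per the labels, ribosomal RNA was removed and directional paired-end libraries were made. Each line has 1 table, deposited by the authors as raw counts of reads per gene, whose reverse-strand column was used (98.9% to 99.3% of stranded counts). CASAVA 1.8.2, Trimmomatic 0.33, STAR 2.5.1, DESeq2 and the builds mm10 and rn6 are named, without roles, in the submitters' processing notes. Which annotation was counted is not stated there. Reads without a single gene (unmapped, multimapping, ambiguous or in no feature) made up 73.4% to 78.3% of mouse reads and 89.7% to 91.8% of rat reads and stayed out of library sizes and tests. Total gene counts per line limit the precision of low genes, and spreads are between lines. The tables of the pXEN lines carry a XENP name with the same line numbers as their titles.

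Mouse groups were compared with edgeR 4.0.16 under R 4.3.3: TMM scaling, filterByExpr (minimum count 10), robust quasi-likelihood fit of all 8 lines by group, Benjamini-Hochberg adjustment over 10895 genes, threshold 0.05. Standard errors are the size of the log2 fold change over the square root of F. Fold changes are fitted values. Levels in both species are CPM. Rn45s took 20.7% to 50.1% of mouse counts and at most 0.0312% of rat counts, so mouse and rat were not tested against each other. Exon lengths and gene coordinates came from GENCODE vM21 on GRCm38, the assembly of mm10, and promoters from RefSeq. The procedure was tested on simulated data. DESeq2 1.42.0, unstranded counts, other scaling and filters, sex as a covariate, the 2 groups alone and leaving out each line were alternatives.

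Members and lists were chosen with earlier results of these data known. All 30 members are named, and from each further list the 2 called genes with the smallest p in a comparison, except for 2 that are not reported here. The sex term was added after its values were seen.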

Additional observations from a re-analysis of the deposited data

Results flagged for a closer look

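The rat lines were screened for a line far from the rest, gene by gene, over the 30 genes. The gap between the highest line and its neighbour, and that between the lowest line and its neighbour, were each divided by the range of the 4 lines and set against Dixon's critical value at the 95% level. By chance about 5% of genes pass. Of the 30, 2 passed, both at the highest line. Cyp51, the lanosterol demethylase, stood at 279 CPM in MAX3 against 165 to 171 CPM in the other 3 lines (gap over range 0.948). Lbr, the sterol reductase of the nuclear envelope, stood at 149 CPM in CX1 against 94.6 to 98.9 CPM in the other 3 (0.921). Neither pattern was tested further.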

How the results depend on the processing

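Over 87 pairs of gene and comparison and 15 alternatives each (1305 fold changes), 60 lost a call and 18 gained one. Of the lost calls, 54 came with a line left out. The sign differed in 56, none of them called in either fit. The number of members called higher in pXEN than in XEN was 4, 7 with no filter on low counts and 5 with DESeq2. The number called lower was 0, and 1 (Abca1) with DESeq2 or with sex as a covariate. The order of Abca1 by sex had been seen beforehand, which limits the call with that covariate. At an unadjusted p under 0.05 edgeR gave 15 of the 29 members tested in that comparison, and 1652 of all 10895 genes tested. Leaving out 1 line gave 2 (without XEN1 or XEN5) to 7 (without XEN2) members higher and 0 lower. For pXEN against ES it gave 1 to 8 higher and 0 to 2 lower, with 1 lower without pXEN6. For XEN against ES it gave 0 to 4 higher and 4 to 10 lower. An ES line left alone is assumed to vary like the other groups. The median of the enzymes for pXEN against ES was 0.24 without ES2. The summed level of the members in rat was 3925 CPM, and 3832 to 3973 CPM with a line left out. Rat Hsd17b7 was at 21.0 CPM, and 10.6 CPM in the unstranded column. Upper-quartile scaling moved the median of all genes to -0.13 for pXEN against ES and -0.11 for XEN against ES, and turned the all-gene split from 1978 higher and 1936 lower to 1792 and 2183, and from 2251 and 1937 to 2039 and 2270. Relative to these shifts no call changed direction. Nsdhl was then called lower in XEN (adjusted p = 0.0353). No paired analysis was possible because the groups compared share fewer than 2 line numbers and these name separate lines.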

Other observations

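Some genes that store cholesterol or release it from lysosomes were higher in both endoderm groups than in ES. Of 6 esterification, storage and oxysterol genes tested of 8, 3 were called higher than in ES in pXEN and 3 in XEN, and 0 lower, where 18.2% and 20.7% of all genes were called higher. Lipa, the acid lipase that frees cholesterol from lipoprotein esters in the lysosome, stood at 72.7 ± 11.4 CPM in pXEN and 61.7 ± 19.6 CPM in XEN (SD, n = 3) against 4.60 ± 0.109 CPM in ES (n = 2), 15.7-fold and 13.3-fold higher (edgeR adjusted p = 2.11e-05 and 3.47e-05). Soat1, which esterifies cholesterol for storage, stood at 284 ± 82.5 and 267 ± 40.3 CPM against 30.5 ± 26.1 CPM, 9.33-fold and 8.77-fold higher (adjusted p = 0.00129 and 0.00155). Between pXEN and XEN 0 of these 6 were called by edgeR or DESeq2, and 2 had an unadjusted p under 0.05.

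Of 10 lysosome and membrane transport genes tested of 11, 3 rose and 1 fell in pXEN against ES, and 5 rose and 0 fell in XEN. Of all genes, 18.2% rose and 17.8% fell in pXEN against ES, and 20.7% and 17.8% in XEN. The lysosomal membrane protein Lamp1 was 2.12-fold higher in pXEN than in ES (edgeR adjusted p = 0.00483). Lamp2 was 3.28-fold higher in pXEN and 3.84-fold in XEN (adjusted p = 0.00647 and 0.00358). Cav1, the caveolar coat protein abundant in fibroblasts, stood at 91.8 CPM in XEN, at 0.190 CPM in pXEN and at 0 in ES, as the fibroblast markers did. Of 11 prenylation and dolichol genes, 0 were called between pXEN and XEN by edgeR or DESeq2 (1 at an unadjusted p under 0.05), and against ES 2 rose and 2 fell in pXEN, and 2 rose and 1 fell in XEN, about the shares of all genes. Nus1, a subunit of the dolichol synthase, was 2.54-fold higher in pXEN and 1.75-fold in XEN, and Fntb, the farnesyltransferase subunit, 2.78-fold and 3.24-fold lower (adjusted p = 0.00909 and 0.00455).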
